A study of Mus musculus with 6 samples.

Results

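The 42 genes described here encode proteins that carry out and police cell division: kinases and phosphatases that start mitosis, the centromere and kinetochore proteins that fasten chromosomes to the spindle, the checkpoint that holds cells until all chromosomes are attached, condensin and the cytokinesis apparatus. The list was given by gene name, but with earlier results of these data known, so its shares of calls are descriptions. Each gene is represented by the probe set with the highest mean log2 value among those that the platform annotation assigns to that gene alone. All 42 were found among the 18193 genes of the array. RNA came from cell fractions of prepubertal mouse testes that were separated magnetically for the surface glycoprotein Thy1, and the labels name no strain, genotype, exact age or treatment. The Thy1-positive fraction is the one that transplantation showed to be enriched in spermatogonial stem cells, and the Thy1-negative fraction is its counterpart from which they were depleted. There are 3 arrays per fraction, numbered as replicates by the labels, here called P1, P2 and P3 (Thy1-positive) and N1, N2 and N3 (Thy1-negative). Whether same-numbered arrays of the fractions share a donor preparation is not given. The comparison asks how these genes differ between a fraction rich in stem cells and the remaining cells.

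Chromosomes are attached to spindle microtubules by the kinetochore, a layered assembly that is built on centromeric chromatin and ends in the Ndc80 complex, which grips the microtubule. Unattached kinetochores recruit the checkpoint proteins of the Bub and Mad families, which restrain Cdc20 and so delay the release of separase and the parting of sister chromatids. In the prepubertal testis spermatogonia divide by mitosis and some germ cells enter meiosis, while Sertoli cells are also still dividing before they mature, so transcripts of mitotic genes can come from germ cells and from somatic cells alike.

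Levels below are given as log2(intensity + 1). A difference subtracts the Thy1-negative mean from the Thy1-positive mean on that scale, its SE is limma's, and the adjusted p is limma's with Benjamini-Hochberg adjustment over all 18193 genes, called below 0.05. Intensities of different genes do not rank their abundance. Among the defining markers, the stem cell receptor gene Gfra1 averaged 10.09 where Thy1 was selected for and 6.63 where it was not, the Sertoli cell factor Sox9 6.68 and 10.73, and the leukocyte antigen gene Ptprc 9.13 and 2.50, near the bottom of the scale in the latter. Of the other 6, Ddx4, Zbtb16 and Csf1r were higher and Amh was lower, while Sycp3, of meiotic prophase, did not pass (1.30, adjusted p = 0.142). Kit, of differentiating spermatogonia, averaged 9.91 in both fractions (adjusted p = 1.00). Kit measured 9.05, 11.05 and 9.62 on N1, N2 and N3 and 9.97, 9.59 and 10.16 on P1, P2 and P3. Among 8 markers of differentiating spermatogonia 3 were higher and 0 lower, and 6 had a difference above 0. Of 17 macrophage markers 16 were higher, and their mean was 8.93 to 9.28 on P arrays and 3.23 to 3.33 on N arrays. Among 19 germ cell markers 8 were higher and 0 lower. An unadjusted p below 0.05 (limma) was found for 17 of these 19, and for 7930 of all 18193 genes. Among 20 Sertoli cell markers 17 were lower and 2 higher. The fractions are mixtures, and in such bulk samples more cells of a type cannot be told apart from more RNA per cell.

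Of the 42 mitosis genes, 15 were higher in the Thy1-positive fraction and 1, Cdc25b, was lower; of all genes, 33% differed in either direction. The share called higher was 35.7%, where 18.5% of all genes were; 41 of the 42 lie above the median gene in mean value, and of the genes above it 27.8% were called higher. The share called lower was 2.38%, against 14.4% of all genes and 23.3% of those above the median gene. The difference was above 0 for 37 members, with a median of 0.45 (quartiles 0.20 and 0.76), whereas the median of all genes was 0.01. All 3 Thy1-positive arrays lay above all 3 Thy1-negative arrays for 23 members (54.8%), as they did for 31.6% of all genes, and below them for 3 (7.14%), as for 19.8% of all genes. The highest fold among the members was 3.19. Centring arrays on their own medians moved the median difference of all genes from 0.01 to 0.13 and the share of called genes that were higher from 56.2% to 79.7%, and it called 26 members higher and 1 lower, at a background of 57.4% of all genes called higher. With the replicate number as a block, 1 member, Cdc25c, was higher and 0 lower, at a background of 5.12% and 3.01%.

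**Figure D1:**
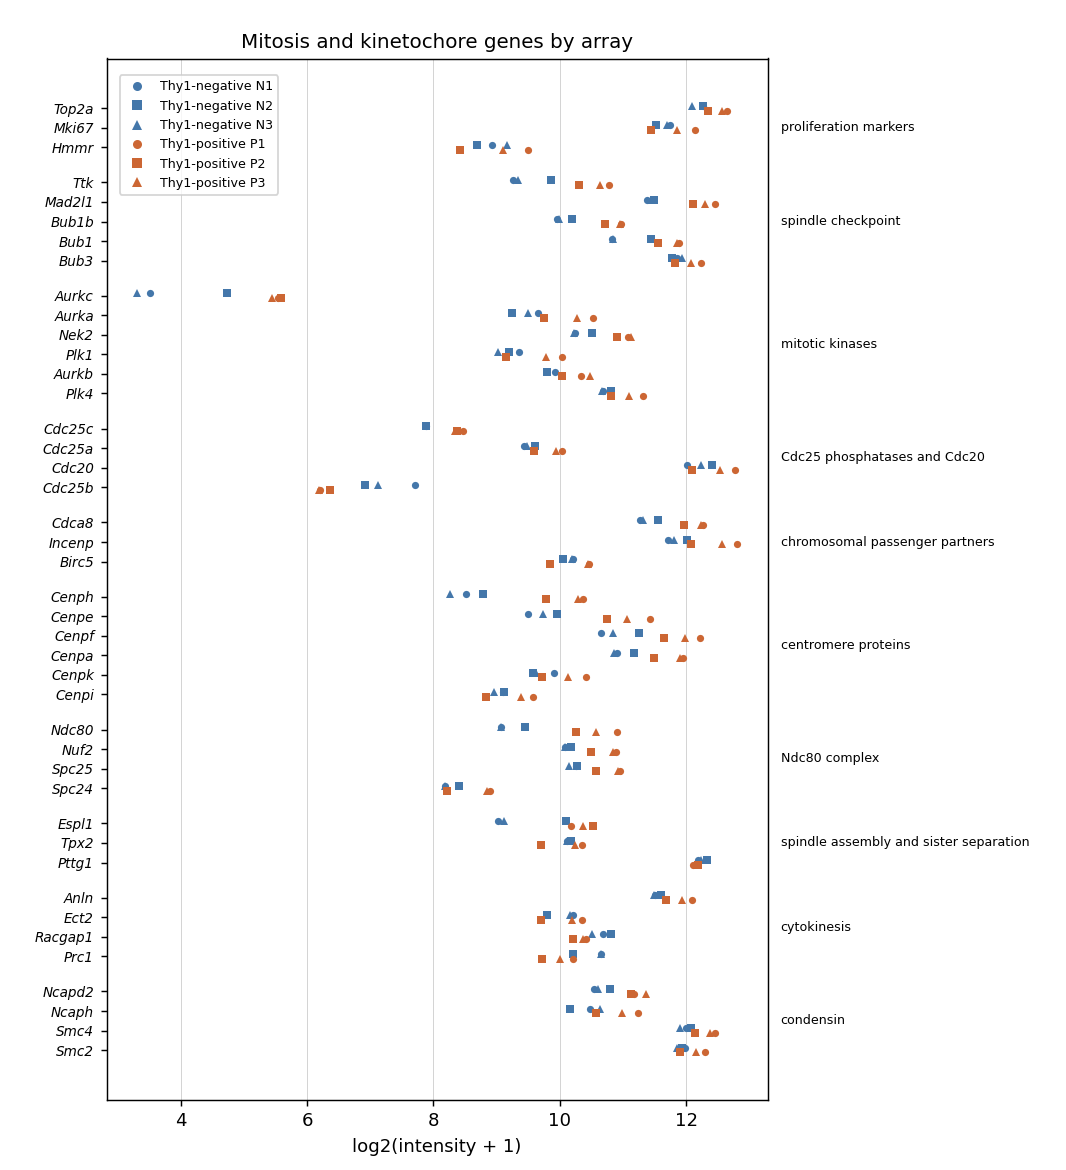
Each point is the log2(intensity + 1) of a gene on 1 array, with the 42 genes grouped by role, Thy1-negative arrays in blue and Thy1-positive arrays in orange. The orange points lie right of all blue points for 23 genes, and the orange square, array P2, is the leftmost orange point for 37.

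**Figure D2:**
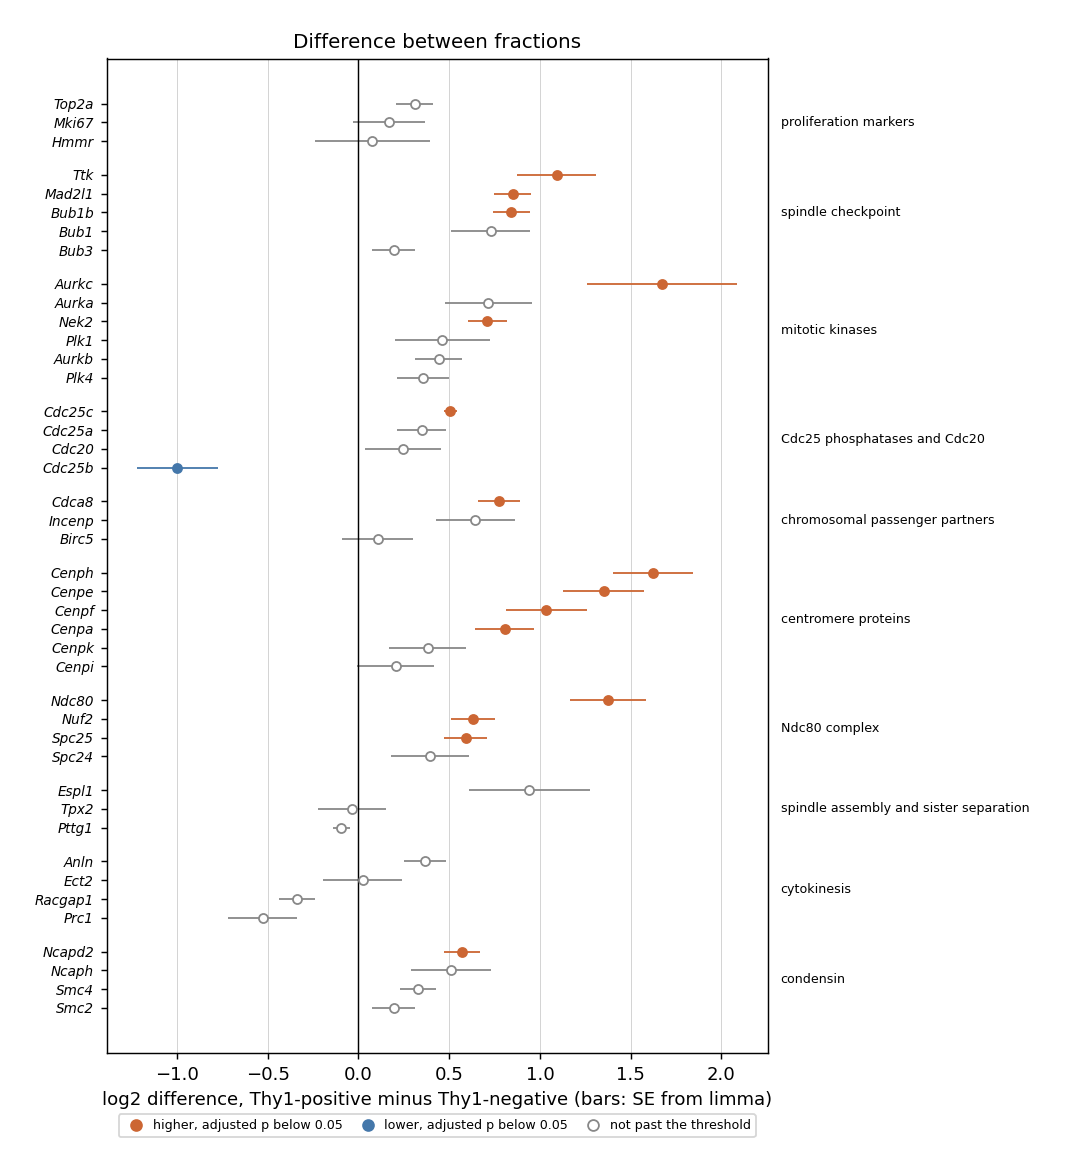
Each point is the log2 difference of a gene between the fractions (Thy1-positive minus Thy1-negative) and each bar its SE from limma, with the genes grouped by role. Filled points passed an adjusted p of 0.05: 15 lie to the right of 0, and Cdc25b lies to the left.

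Array P2 stood apart among the Thy1-positive arrays. The mean over the 42 genes was 10.39 on P2 against 10.83 on P1 and 10.71 on P3, and 10.13, 10.24 and 10.10 on N1, N2 and N3. P2 was the lowest Thy1-positive array for 37 of the 42 (88.1%), while it was the lowest for 54.1% of all genes. On the same array the 20 Sertoli cell markers averaged 8.86, against 7.27 on P1 and 7.44 on P3 and 10.98 to 11.32 on the Thy1-negative arrays, while the 19 germ cell markers averaged 11.29, as on P1 (11.26) and P3 (11.27). Without P2, 27 members were called higher and 0 lower, 14 of the 15 among them; the exception was Aurkc. Of all genes 14.8% were then called higher. The 13 added were Top2a, Aurka, Aurkb, Plk1, Plk4, Cdc25a, Birc5, Incenp, Cenpi, Spc24, Anln, Smc2 and Smc4. Since P2 was the lowest Thy1-positive array for 37 of the 42, leaving it out raises their differences by construction. Calls gained without P2, here and below, are thus no added support. Array N2 held more germ cell signal than its partners: the germ cell markers averaged 10.40 on N2 against 8.61 on N1 and 9.16 on N3, and those of meiotic prophase 8.17 against 6.25 and 6.78. N2 was the highest Thy1-negative array for 28 members (66.7%), 1 tie included, while it was the highest for 33.1% of all genes. Without N2 the calls were 17 higher and 2 lower, where 23.5% of all genes were called higher and 16.5% lower. The count called higher was 8 without N1, 5 without N3, 8 without P1 and 4 without P3, while the share of all genes was 7.42% to 10.5% in these fits. Of the 15, Bub1b, Mad2l1, Cdc25c and Cenph passed in each of the 6 fits that left out 1 array. How far the Sertoli, germ cell and leukocyte signal bears on the members was not tested.

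**Figure D3:**
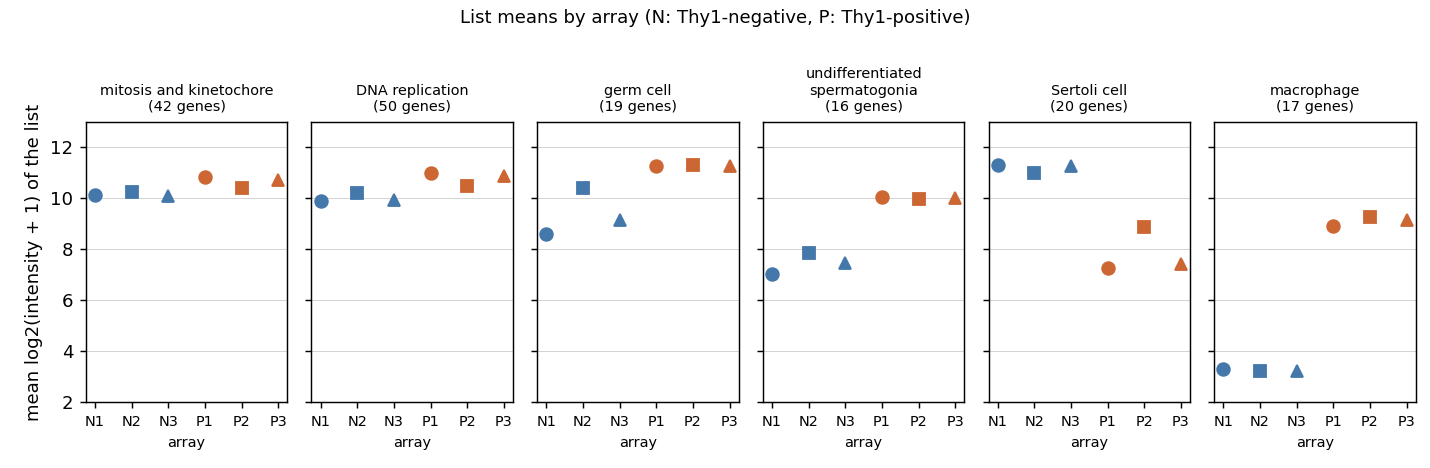
Each point is the mean log2(intensity + 1) of a list of genes on 1 array, for the mitosis and kinetochore genes, DNA replication genes and 4 sets of cell type markers. The mitosis genes are lower on P2 (10.39) than on P1 (10.83) and P3 (10.71), the array on which the Sertoli cell markers are highest among the Thy1-positive arrays (8.86).

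Promoters of the members share sequence features that the choice of genes did not use. RefSeq promoters of GRCm38.p6, spanning 250 bases before to 50 bases after the annotated start of transcription, were matched by Entrez identifier for 36 of the 42; Incenp, Cdc25c, Aurkb, Spc24, Smc4 and Tpx2 had no entry. They were searched on both strands for the cell cycle homology region, or CHR, as TTTGAA, the element through which the DREAM and MuvB complexes act on genes of late cell cycle, for the CCAAT box as CCAAT, bound by NF-Y, and for E2F elements as TTTGGCGC or TTTCCCGC. A CHR match was present in 21 of the 36 (58.3%), against 18.1% of the first promoters of 27025 genes in the table. A CCAAT box was present in 28 (77.8%), against 37.9%, and an E2F match in 2 (5.56%), against 1.63%. Split by call, with Cdc25b set aside as the 1 member called lower, a CHR match was in 8 of 14 members called higher (57.1%) and 13 of 21 not called (61.9%), and a CCAAT box in 11 (78.6%) and 16 (76.2%). A match of letters is not evidence of binding.

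Shown are the promoters of the 4 most changed members called higher that hold a CHR within the printed stretch. Those of Prc1 and Racgap1, cytokinesis genes with values below 0, were added by name and likewise had to hold one. Because every promoter shown was picked for a CHR, they cannot show whether called and uncalled genes differ in layout. Each runs from 150 bases before to 30 bases after the start, 5′ to 3′ on the gene's strand, with CHR and CCAAT matches of either strand in capitals; TTCAAA and ATTGG are the reverse strand's matches. In Cdca8 the CHR shares its last base with a reversed CCAAT box. The stretches are chr9:83834539-83834718 (plus strand) for Ttk, chr1:189688057-189688236 (minus) for Cenpf, chr5:30666736-30666915 (plus) for Cenpa, chr4:124936888-124937067 (minus) for Cdca8, chr7:80294301-80294480 (plus) for Prc1 and chr15:99651627-99651806 (minus) for Racgap1.
Ttk: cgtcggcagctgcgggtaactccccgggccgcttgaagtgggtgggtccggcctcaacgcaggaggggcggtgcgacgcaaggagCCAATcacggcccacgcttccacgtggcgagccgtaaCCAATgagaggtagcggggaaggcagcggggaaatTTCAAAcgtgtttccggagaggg
Cenpf: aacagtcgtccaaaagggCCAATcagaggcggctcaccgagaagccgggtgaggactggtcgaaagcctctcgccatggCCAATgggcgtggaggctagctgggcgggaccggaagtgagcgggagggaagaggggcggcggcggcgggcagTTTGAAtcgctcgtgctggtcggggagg
Cenpa: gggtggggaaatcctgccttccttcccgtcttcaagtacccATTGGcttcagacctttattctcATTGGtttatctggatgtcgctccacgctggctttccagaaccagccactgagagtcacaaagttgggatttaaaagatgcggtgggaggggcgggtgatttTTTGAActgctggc
Cdca8: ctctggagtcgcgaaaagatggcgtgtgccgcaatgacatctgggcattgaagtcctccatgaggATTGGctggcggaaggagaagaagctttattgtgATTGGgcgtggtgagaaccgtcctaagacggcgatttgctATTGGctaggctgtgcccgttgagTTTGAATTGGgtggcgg
Prc1: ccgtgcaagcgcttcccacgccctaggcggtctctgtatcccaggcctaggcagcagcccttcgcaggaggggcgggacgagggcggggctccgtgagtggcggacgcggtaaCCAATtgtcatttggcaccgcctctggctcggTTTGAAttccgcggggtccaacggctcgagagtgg
Racgap1: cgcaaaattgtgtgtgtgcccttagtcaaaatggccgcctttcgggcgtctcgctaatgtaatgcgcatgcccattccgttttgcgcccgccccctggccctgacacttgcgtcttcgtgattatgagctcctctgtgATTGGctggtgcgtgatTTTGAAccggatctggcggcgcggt

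**Figure D4:**
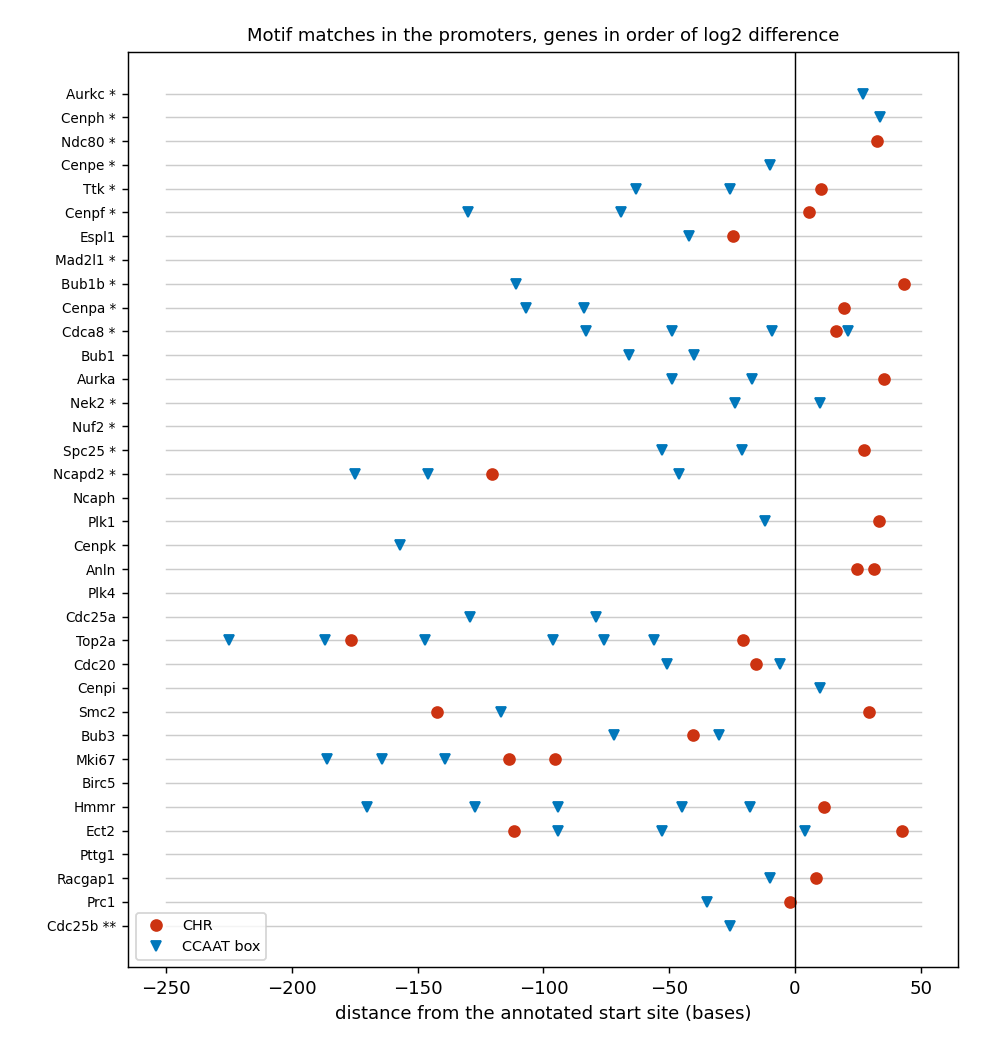
Each line is the promoter of 1 of 36 members, from 250 bases before to 50 bases after the annotated start (0), with CHR matches as red circles and CCAAT boxes as blue triangles; members are in order of their log2 difference, * marks those called higher and ** the one called lower. CHR matches occur along the whole order, in 8 of the 14 called higher and 13 of the 21 not called.

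For the counts by role below, 18.5% of all genes and 27.8% of those above the median gene were called higher. Each role holds few genes. Of the centromere protein genes 4 of 6 rose (66.7%), and their median of 0.92 was the highest of the roles. Cenph, a subunit of the constitutive centromere network on which the kinetochore is built, measured 8.51, 8.79 and 8.27 on N1, N2 and N3 and 10.37, 9.78 and 10.28 on P1, P2 and P3. The fractions were far from overlapping, and Cenph rose 3.08-fold (difference 1.62, SE 0.22, adjusted p = 0.00896). Cenpe, the kinesin that carries chromosomes to the spindle equator, measured 9.49, 9.96 and 9.73 against 11.43, 10.74 and 11.07 and rose 2.55-fold (1.35, SE 0.22, adjusted p = 0.0138). Cenpf, a large protein of the outer kinetochore, measured 10.66, 11.25 and 10.84 against 12.22, 11.65 and 11.98 and rose 2.05-fold (1.04, SE 0.22, adjusted p = 0.0276). In all 3 genes P2 was the Thy1-positive array nearest to the Thy1-negative ones. Cenpa, the histone H3 variant that marks the centromere, measured 10.91, 11.17 and 10.86 against 11.96, 11.49 and 11.90 and rose 1.75-fold (0.80, SE 0.16, adjusted p = 0.0231). The network subunits Cenpk (0.38, SE 0.21, adjusted p = 0.2495) and Cenpi (0.21, SE 0.21, adjusted p = 0.538) did not pass, and their arrays overlapped. Cenpe lost its call without N3 or P3, and Cenpf and Cenpa without N1, N3, P1 or P3. Dimmer probe sets of Cenpe and Cenpf differed by 0.64 and 0.54 and 1 of Cenpa by -0.05, none called.

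The microtubule-binding Ndc80 complex, a tetramer, had 3 of 4 subunit genes higher. Ndc80 itself measured 9.07, 9.45 and 9.08 against 10.90, 10.25 and 10.57 and rose 2.60-fold (1.38, SE 0.21, adjusted p = 0.0116). Its direct partner Nuf2 measured 10.08, 10.17 and 10.08 against 10.89, 10.49 and 10.84 and rose 1.55-fold (0.63, SE 0.12, adjusted p = 0.0201). Whether the changes of Ndc80 and Nuf2 differ from each other was not tested. Spc25, of the dimer that anchors the complex to the inner kinetochore, measured 10.25, 10.27 and 10.15 against 10.95, 10.57 and 10.92 and rose 1.51-fold (0.59, SE 0.12, adjusted p = 0.0232). Its partner Spc24 measured 8.19, 8.40 and 8.19 against 8.89, 8.22 and 8.85: P2 lay among the Thy1-negative arrays, and the gene did not pass (0.39, SE 0.21, adjusted p = 0.238). Without P2 Spc24 differed by 0.61 and passed. Ndc80 lost its call without N3 or P3, and Nuf2 and Spc25 without N1, N3, P1 or P3.

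Spindle checkpoint genes were higher in 3 of 5 cases, with a median of 0.84. Mad2l1, which encodes the checkpoint protein MAD2 that sequesters Cdc20, measured 11.37, 11.49 and 11.45 against 12.46, 12.11 and 12.29, a 1.80-fold rise (0.85, SE 0.10, adjusted p = 0.00670). Bub1b, encoding BUBR1 of the same inhibitory complex, measured 9.95, 10.19 and 9.98 against 10.97, 10.72 and 10.96, a 1.79-fold rise (0.84, SE 0.10, adjusted p = 0.00711). Both were narrow in spread within each fraction, and a further probe set of Bub1b rose by 0.90 (SE 0.07). Ttk, the kinase MPS1 that starts checkpoint signalling, measured 9.26, 9.86 and 9.34 against 10.79, 10.30 and 10.63 and rose 2.13-fold (1.09, SE 0.22, adjusted p = 0.0226), a call that was lost without N1, N3, P1 or P3. Bub1, a scaffold kinase of the checkpoint, measured 10.82, 11.45 and 10.84 against 11.89, 11.55 and 11.85; N2 lay just under P2, and it did not pass (0.73, SE 0.22, adjusted p = 0.0619). It passed under 8 of 20 alternatives, of which 1 left out a single array, N2 (0.94). Bub3, which carries Bub1 and BUBR1 to kinetochores, did not pass (0.19, SE 0.12, adjusted p = 0.289), and its dimmer probe sets pointed the other way: -0.74 and -0.55 were not called, while 1 below the median intensity was called lower at -0.78. As the mean of all its probe sets Bub3 was called lower (-0.43, adjusted p = 0.0317).

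Among the mitotic kinases 2 of 6 rose (33.3%), near the 27.8% of genes above the median gene. Nek2, a kinase that loosens the link between centrosomes, measured 10.25, 10.51 and 10.22 against 11.08, 10.90 and 11.13 and rose 1.64-fold (0.71, SE 0.11, adjusted p = 0.0114), failing without P3. Of the Aurora kinases 1 of 3 passed. Aurkc, whose protein takes the place of Aurora B in meiosis, measured 3.51, 4.73 and 3.30 against 5.55, 5.58 and 5.44, a 3.19-fold rise (1.67, SE 0.41, adjusted p = 0.0388). It was the only member whose mean is not above the median gene, its lowest arrays N1 and N3 lay under the median of their own array (4.18 and 4.20), and N2 stood well above both, as it did for the meiotic markers. Among the fits without 1 array, Aurkc passed when N2 was left out (2.11) and in no other. Aurka, a kinase of centrosomes and spindle poles, measured 9.65, 9.25 and 9.50 against 10.53, 9.75 and 10.26 (0.72, SE 0.24, adjusted p = 0.0836), and Aurkb, the kinase of the chromosomal passenger complex, 9.93, 9.79 and 9.80 against 10.33, 10.03 and 10.48 (0.44, SE 0.13, adjusted p = 0.0600). Neither overlapped, neither passed, and without P2 they passed at 0.93 and 0.57. Plk1, a kinase needed from mitotic entry to cytokinesis (0.46, SE 0.26, adjusted p = 0.257), and Plk4, the kinase of centriole duplication (0.36, SE 0.14, adjusted p = 0.132), did not pass and had P2 among or beside the Thy1-negative arrays. A dimmer probe set of Plk4 was called higher over all 45037 probe sets (0.72, SE 0.18, adjusted p = 0.0487), where 11.8% were.

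Among the partners of Aurora B 1 of 3 rose (33.3%), again near the 27.8% of genes above the median gene. Cdca8, which encodes Borealin, measured 11.27, 11.55 and 11.32 against 12.26, 11.97 and 12.23 and rose 1.71-fold (0.77, SE 0.12, adjusted p = 0.0110), failing without N3 or P3; its other bright probe sets differed by 0.79 (not called) and 1.20 (called). Incenp, the scaffold that activates the kinase, measured 11.71, 12.01 and 11.81 against 12.81, 12.07 and 12.57 and did not pass by its brightest probe set (0.64, SE 0.22, adjusted p = 0.0865), one that Affymetrix marks by the ending _x_at as liable to cross-hybridise. A pair of other Incenp probe sets rose, by 0.82 (SE 0.04, adjusted p = 0.00131 in the fit of all 45037) and by 2.14 (SE 0.26, adjusted p = 0.00984), and a dimmer one gave -0.44 with overlap (not called), so the gene's call rests on the probe set taken. Birc5, which encodes Survivin, measured 10.21, 10.05 and 10.19 against 10.46, 9.85 and 10.45 and did not pass (0.11, SE 0.19, adjusted p = 0.771): P1 and P3 were above all Thy1-negative arrays and P2 was below them all.

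The CDC25 phosphatases, which remove the inhibitory phosphates of cyclin-dependent kinases, went separate ways. Cdc25b measured 7.71, 6.92 and 7.12 against 6.21, 6.36 and 6.19 and fell by 1.00, or 2.00-fold (SE 0.22, adjusted p = 0.0303). It was the only called decrease of the 42, had a single probe set, and failed without N3, P1, P2 or P3 (differences from -1.16 to -0.77 over the 6 fits). Cdc25c rose 1.42-fold (0.51, SE 0.03, adjusted p = 0.00195), from 7.89 on each of N1, N2 and N3 to 8.46, 8.38 and 8.35. The SD of its Thy1-negative values was 0.000784, narrower than for any other member, with 7.8897 on both N1 and N2. Whether the processing narrowed this spread was not tested. The second probe set of Cdc25c rose likewise by 0.62 (SE 0.01). Cdc25a did not pass (0.35, SE 0.14, adjusted p = 0.123). Cdc20, the activator of the anaphase-promoting complex, did not pass by its brightest probe set (0.25, SE 0.21, adjusted p = 0.461; 12.02, 12.40 and 12.24 against 12.77, 12.09 and 12.54), again an _x_at one, while a probe set without that mark averaged 11.06 against 11.84, without overlap, and rose by 0.78 (SE 0.12, adjusted p = 0.0150 over all probe sets).

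Of the 3 genes read most often as proliferation markers 0 passed, and 1 had an unadjusted p below 0.05 (limma), as had 7930 of all 18193 genes. Mki67, which encodes the Ki-67 antigen, measured 11.74, 11.52 and 11.69 against 12.14, 11.44 and 11.86 (0.17, SE 0.20, adjusted p = 0.605), with P2 below every Thy1-negative array. Top2a, the topoisomerase that untangles sister chromatids, measured 12.27, 12.26 and 12.10 against 12.65, 12.34 and 12.57; its fractions did not overlap, and it did not pass (0.31, SE 0.10, adjusted p = 0.0791), though it did without P2 (0.40). Hmmr, a hyaluronan receptor that also binds the spindle, gave 0.08 (SE 0.32, adjusted p = 0.917). A p above the threshold does not show that these levels are the same.

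Genes of spindle assembly, sister separation and cytokinesis held 0 called members of 7, by limma over all genes. An unadjusted p below 0.05 was found for 4 of the 7, as for 7930 of all 18193 genes. Espl1, encoding the protease separase, measured 9.03, 10.10 and 9.11 against 10.17, 10.52 and 10.37 (0.94, SE 0.33, adjusted p = 0.0967); N2 reached nearly the level of P1, and Espl1 passed without N2 (1.28). Pttg1, encoding its inhibitor securin, measured 12.19, 12.33 and 12.24 against 12.10, 12.19 and 12.19 (-0.09, SE 0.05, adjusted p = 0.213), whereas a second bright probe set rose by 0.51 (SE 0.06, adjusted p = 0.00970 over all probe sets). Tpx2, which activates Aurora A at the spindle, gave -0.04 (SE 0.19, adjusted p = 0.936), and a dimmer probe set gave -1.47 without overlap (adjusted p = 0.0620 over all probe sets). The signs of Pttg1 and Tpx2 turned when arrays were centred on their medians (0.03 and 0.09).

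The cytokinesis genes had the lowest median of the roles, -0.16. Prc1, which bundles the microtubules of the central spindle, measured 10.65, 10.21 and 10.65 against 10.22, 9.72 and 10.00 (-0.53, SE 0.19, adjusted p = 0.102), with P1 at the level of N2, and passed without N2 (-0.68). Racgap1, a subunit of centralspindlin, measured 10.68, 10.81 and 10.51 against 10.42, 10.21 and 10.37, without overlap (-0.34, SE 0.10, adjusted p = 0.0611). A second Racgap1 probe set measured 10.83, 10.17 and 10.63 against 9.29, 9.11 and 9.33 and was called lower over all probe sets (-1.30, SE 0.19, adjusted p = 0.0143), where 11.5% were. Ect2, the exchange factor that activates RhoA at the cleavage plane, gave 0.02 (SE 0.22, adjusted p = 0.956). Anln, the actin-binding scaffold anillin, measured 11.50, 11.59 and 11.50 against 12.09, 11.68 and 11.93 (0.37, SE 0.12, adjusted p = 0.0730) and passed without P2 (0.48). Cytokinesis genes averaged 10.69 on the Thy1-negative and 10.57 on the Thy1-positive arrays, while centromere genes averaged 9.82 and 10.72; a test between the roles was not run.

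Condensin, the complex that compacts mitotic chromosomes, had 1 of 4 subunit genes higher (25%), where 27.8% of genes above the median gene were. All 4 differences were above 0. Ncapd2, a regulatory subunit of condensin I, measured 10.54, 10.80 and 10.61 against 11.17, 11.12 and 11.36 and rose 1.48-fold (0.57, SE 0.10, adjusted p = 0.0159), failing without N1, N3, P1 or P3. Ncaph, its kleisin subunit, did not pass by the brightest probe set (0.51, SE 0.22, adjusted p = 0.154), while a second probe set rose by 0.73 (SE 0.14, adjusted p = 0.0258 over all probe sets). The ATPase subunits Smc4 (0.33, SE 0.10, adjusted p = 0.0622) and Smc2 (0.19, SE 0.12, adjusted p = 0.286) did not pass, and both passed without P2 (0.42 and 0.31).

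For 29 of the 42 genes the array carries several probe sets, 99 in all. Of the 57 that were not the brightest, 42 lay above the median intensity and belonged to 27 genes. Of these 42, 31 pointed the same way as the brightest probe set and 11 the other way. Called over all probe sets, 9 were higher and 1 lower, where 11.8% of all probe sets were higher and 11.5% lower. The opposite signs were found in a pair of Bub3 probe sets and in single ones of Bub1, Anln, Top2a, Smc2, Incenp, Hmmr, Cenpa and Cenpk, none of them called, and in the called probe set of Pttg1. The brightest probe set ended in _x_at for 5 members and in _s_at for 6. With both kinds left out, 41 members remained, and 19 were called higher, among them 14 of the 15. Of all genes 18.6% were then called higher. The 5 added members were Plk4, Cdc20, Incenp, Pttg1 and Ncaph.

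**Figure D5:**
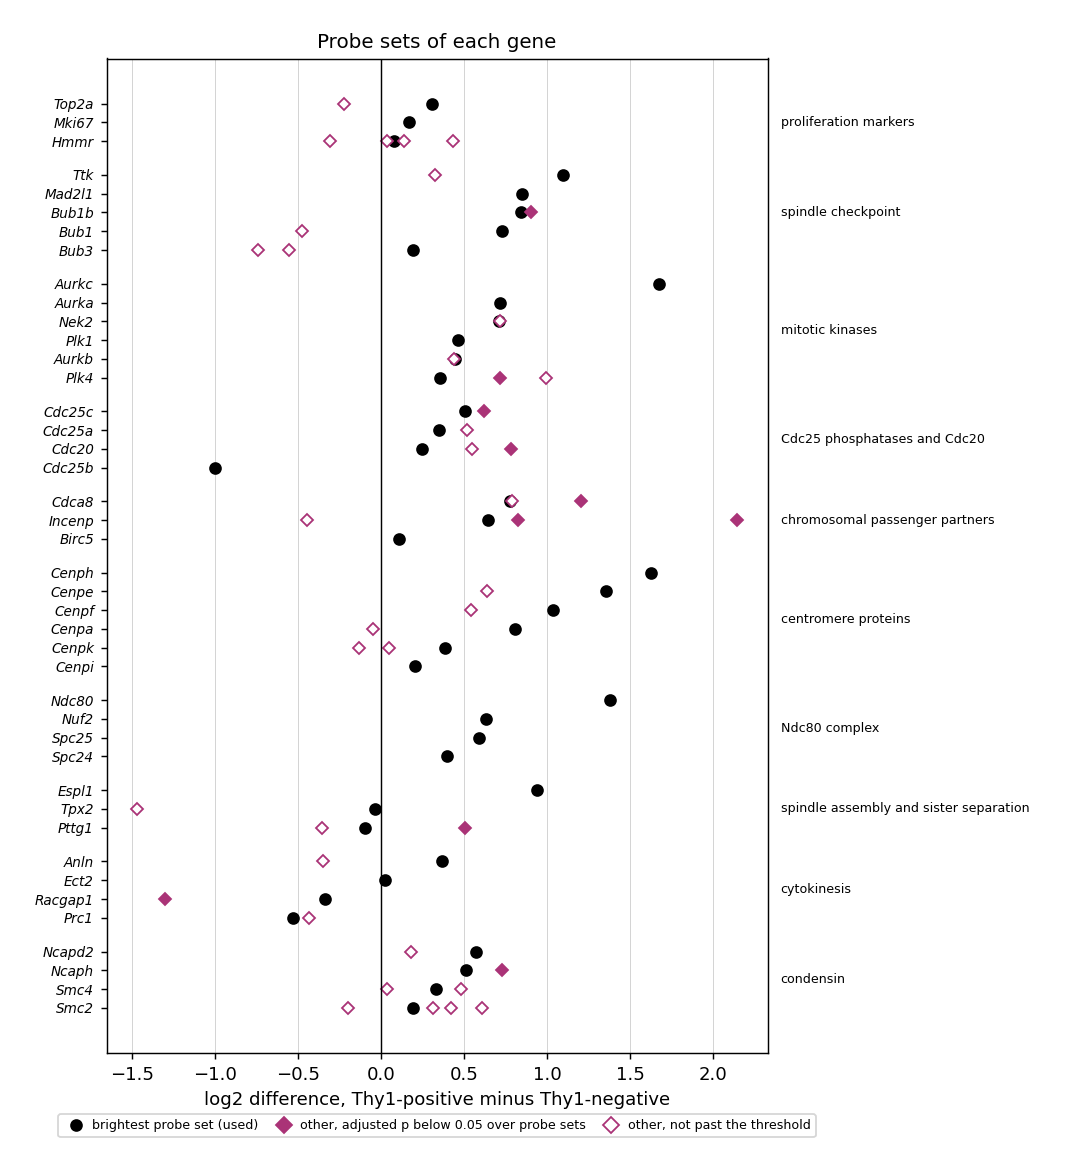
Each symbol is the log2 difference (Thy1-positive minus Thy1-negative) of 1 probe set, with black circles for the brightest probe set of a gene and diamonds for its other probe sets above the median intensity, filled where called over all probe sets. Diamonds of Incenp (0.82 and 2.14) and Cdc20 (0.78) are called higher and that of Racgap1 (-1.30) lower, although the circles of these genes were not called.

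Mitosis genes outside the list were also called higher more often than lower. The 116 further genes included those of the spindle, kinetochore, cohesin, centrosome and anaphase-promoting complex, and regulators of the cell cycle. Like the members, they were chosen with earlier results of these data known. Of these 116, 47 were higher (40.5%) and 3 lower (2.59%), with a median of 0.49. Among all genes 18.5% were higher and 14.4% lower, and among those above the median gene 27.8% and 23.3%. The highest rises were those of Mybl2, the B-Myb transcription factor of late cell cycle genes (3.41-fold; 1.77, SE 0.23, adjusted p = 0.00787), Cdca7 (2.78-fold; 1.47, SE 0.22, adjusted p = 0.0115) and Cenps, a centromere protein (2.75-fold; 1.46, SE 0.26, adjusted p = 0.0165). Those that fell were Ska2 of the microtubule-binding SKA complex (-1.55, SE 0.30, adjusted p = 0.0204), the cohesin subunit Stag2 (-1.41, SE 0.26, adjusted p = 0.0188) and Ckap2l (-0.48, SE 0.10, adjusted p = 0.0232). The count called higher was 22 without N1, 15 without N3, 18 without P1 and 14 without P3. Of all genes, 7.42% to 10.5% were called higher in these fits.

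Of 50 genes of DNA replication, 27 were called higher (54%) and 0 lower, where 18.5% and 14.4% of all genes were. Their median was 0.73. An unadjusted p below 0.05 (limma) was found for 40 of the 50, and for 7930 of all 18193 genes. Of 32 cyclins, cyclin-dependent kinases, their inhibitors and E2F genes, 8 were higher (25.0%) and 7 lower (21.9%), with a median of 0.20; of the genes above the median gene 27.8% were higher and 23.3% lower. The replication list too was lower on P2 (10.49) than on P1 (10.98) and P3 (10.86). Its count called higher fell to 7, 5, 8 and 4 without N1, N3, P1 and P3. Of all genes, 10.5%, 8.10%, 10.4% and 7.42% were called higher in these fits. These counts describe the lists side by side, and differences between the lists were not tested.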

How the data were processed

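The authors deposited a single table in which every probe set has a linear intensity value for each of the 6 arrays. Per the submitters' processing notes the tool was GCRMA (version not given). The labels instead speak of scaling in the scanner software to a mean of 150 with 2% trimmed, but the trimmed means were 285 to 291. Which of these made the values is not given here.

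After removal of 64 control probe sets, 45037 remained, of which 34945 had 1 gene in the platform annotation, giving 18193 genes. All 42 members matched RefSeq (GRCm38.p6) by Entrez identifier. Values were log2(intensity + 1), without further normalization or filter, and were compared with limma 3.58.1 (lmFit, eBayes; R 4.3.3), 2-sided, with the fraction as the only term. The procedure was tested on simulated data with few changed genes and independent noise per gene and array. That setting is unlike these data, where 33% of genes differed. No depth applies to arrays; their number limits the precision. The p-values measure the spread between the replicate arrays of a fraction.

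Named genes were the 42 members, the 3 largest called changes per direction among further mitosis genes, and defining markers. The members, lists and alternatives were chosen with earlier results of these data known.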

Additional observations from a re-analysis of the deposited data

How the results depend on the processing

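Leaving out 1 array at a time, the members called higher ranged from 4 to 27 and those called lower from 0 to 2; the ranges were 14 to 49 and 0 to 6 for the further mitosis genes, 4 to 32 for DNA replication, and 4 to 10 and 2 to 6 for the cyclin list. Of all genes, 7.42% to 23.5% were called higher and 6.39% to 16.5% lower in the fits without 1 array. Without both arrays numbered 2, 26 members were higher, where 23.9% of all genes were higher and 17.1% lower. The further mitosis genes then gave 8 lower with a median of 0.66, and DNA replication 45 higher and 1 lower. Without both numbered 3, the counts of all these lists were 0, and of all genes 0.819% were higher.

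Over all genes the deviations of same-numbered arrays correlated at -0.16, -0.17 and -0.04. Over the 42 members alone they correlated at 0.19, 0.40 and 0.22, but N3 correlated more with P1 (0.47) than with P3. With so few arrays per fraction, these correlations cannot decide whether same-numbered arrays are pairs. The fit with the fraction as the only term did not take the replicate numbers as pairs. With the numbers as a replicate block, 1 member was higher and 0 lower, 4 and 1 of the further mitosis genes, 1 replication gene was higher, and 2 cyclin genes lay each way; of all genes 5.12% were higher. Array weights, whose estimation stopped before it converged, gave 35 and 4 members, 83 and 16 further genes, 48 and 1 replication genes, and 15 and 11 cyclin genes, with 41.3% of all genes higher and 26.1% lower.

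Median centring gave 26 members and 43 replication genes higher and a cyclin median of 0.33, with 57.4% of all genes higher. Quantile normalization, housekeeping centring, and a restriction to genes above the median each gave 2 members and 5 further genes lower. Raising low values to the 25th percentile gave 2 members lower, and averaging probe sets 3. No counts of members called higher other than those given here moved by over 1.5 times.

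Signs turned for 5 members, none of them called with the settings of the report. Among the turned values those of Bub3 as a mean of probe sets (adjusted p = 0.0317) and of Pttg1 without _x_at and _s_at probe sets (adjusted p = 0.00724) passed limma's threshold. Tpx2 was 0.0873 after median centring, 0.12 with array weights, 0.16 without P2 and 0.19 without both numbered 2. Pttg1 was 0.0277 after median centring, 0.0193 as a mean of probe sets and 0.51 without _x_at and _s_at probe sets; Bub3 was -0.43 and -0.74 in the last pair. Hmmr was -0.0447 with array weights and ranged from -0.16 to 0.37 in fits without 1 array, and Ect2 from -0.11 to 0.22. The causes were not tested.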
